A study of Homo sapiens with 16 samples.

Results

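The 6 BMAL1 peak lists of the line U2OS-CHRONO, at 0, 4, 8, 12, 16 and 20 h, are described here. They were chosen by the line and antibody in their labels, and are 6 of the 16 samples and 6 of the 13 peak lists of the series, with 36464 of its 58586 peaks. U2OS is a human osteosarcoma cell line, labelled as bone, and U2OS-CHRONO (U2OS_CHR in the titles) is a line of the same cells named for CHRONO, the product of CIART. All 6 cultures were given 200 nM dexamethasone, and collection every 4 h began, per the labels, 4 h before the trough of luciferase driven by the BMAL1 promoter, so the label 0 h is not the time of the dexamethasone. The labels do not say how CHRONO was changed in the line or whether it is a single clone. There was 1 library per time and no replicate, so the 6 times stand in for replicates, and read depth was unknown. The times 8 and 12 h had the shortest lists and were compared with 0, 4, 16 and 20 h, called the other times below.

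BMAL1 is the basic helix-loop-helix PAS protein that pairs with CLOCK or NPAS2 and binds E-box elements, whose best known form is CACGTG. The pair switches on the PER, CRY, REV-ERB (NR1D1, NR1D2) and DEC (BHLHE40, BHLHE41) genes, whose products repress the pair or the BMAL1 gene, and the PAR bZIP genes DBP, TEF and HLF, which carry the rhythm to output genes. CHRONO is known as a further repressor of the BMAL1-CLOCK pair. Dexamethasone sets the clocks of cultured cells to a common phase through the glucocorticoid receptor.

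The promoters below are shown because their BMAL1 peaks were found at different numbers of times. Each is a window from RefSeq (GRCh38.p14) of 250 bases before to 50 after an annotated start, 5′ to 3′ on the gene's strand, with CACGTG in capitals. NR1D2 (REV-ERBβ, a repressor of BMAL1; chr3:23945871-23946170, plus strand) and CDK4 (a cell cycle kinase; chr12:57752261-57752560, minus strand) had a peak over the window at all 6 times. LAMP1 (a lysosomal membrane protein; chr13:113296989-113297288, plus strand) had one at every time but 12 h. SPG21 (maspardin; chr15:64989421-64989720, minus strand) and TIMELESS (a replication fork protein tied to the clock; chr12:56449377-56449676, minus strand) had a peak at the 4 other times and at neither 8 nor 12 h. DBP (chr19:48637330-48637629, minus strand) had a peak at all 6 times and no CACGTG in the window.
NR1D2: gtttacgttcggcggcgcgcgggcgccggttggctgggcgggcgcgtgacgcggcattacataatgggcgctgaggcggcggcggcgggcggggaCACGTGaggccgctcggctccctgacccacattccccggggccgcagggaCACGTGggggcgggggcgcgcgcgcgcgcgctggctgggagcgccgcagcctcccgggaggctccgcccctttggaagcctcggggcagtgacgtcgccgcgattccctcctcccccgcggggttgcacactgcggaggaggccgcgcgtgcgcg
CDK4: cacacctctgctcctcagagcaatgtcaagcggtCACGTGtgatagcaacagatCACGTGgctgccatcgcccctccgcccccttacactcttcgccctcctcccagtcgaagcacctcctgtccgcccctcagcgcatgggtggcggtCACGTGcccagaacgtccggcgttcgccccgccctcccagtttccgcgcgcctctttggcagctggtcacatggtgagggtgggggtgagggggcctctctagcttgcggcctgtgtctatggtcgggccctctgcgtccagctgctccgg
LAMP1: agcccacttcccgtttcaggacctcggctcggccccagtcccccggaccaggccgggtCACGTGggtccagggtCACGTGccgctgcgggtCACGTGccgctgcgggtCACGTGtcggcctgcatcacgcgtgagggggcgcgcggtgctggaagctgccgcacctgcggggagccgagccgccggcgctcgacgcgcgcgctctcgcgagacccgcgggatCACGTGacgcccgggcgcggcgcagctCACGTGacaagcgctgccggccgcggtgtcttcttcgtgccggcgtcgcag
SPG21: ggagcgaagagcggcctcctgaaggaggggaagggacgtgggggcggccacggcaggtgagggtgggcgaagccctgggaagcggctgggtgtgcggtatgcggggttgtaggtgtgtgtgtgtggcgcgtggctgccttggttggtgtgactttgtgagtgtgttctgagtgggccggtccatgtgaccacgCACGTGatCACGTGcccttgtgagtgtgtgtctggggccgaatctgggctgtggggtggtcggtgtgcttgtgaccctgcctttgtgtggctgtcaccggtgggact
TIMELESS: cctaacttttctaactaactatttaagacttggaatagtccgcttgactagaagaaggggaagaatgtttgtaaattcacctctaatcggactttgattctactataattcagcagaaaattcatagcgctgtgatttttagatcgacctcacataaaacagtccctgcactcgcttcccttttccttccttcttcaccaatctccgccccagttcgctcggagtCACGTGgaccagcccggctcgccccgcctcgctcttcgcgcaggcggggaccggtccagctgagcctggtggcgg
DBP: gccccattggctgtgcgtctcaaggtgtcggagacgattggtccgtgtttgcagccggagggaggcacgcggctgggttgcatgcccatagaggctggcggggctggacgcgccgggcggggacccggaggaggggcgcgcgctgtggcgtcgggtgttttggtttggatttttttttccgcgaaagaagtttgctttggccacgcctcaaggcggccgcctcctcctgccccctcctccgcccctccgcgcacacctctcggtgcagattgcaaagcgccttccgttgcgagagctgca
The NR1D2 window holds 2 copies of CACGTG and CDK4 holds 3. LAMP1 holds 6, of which the last runs from base -1 to base 5 around the start. SPG21 holds 2, starting at bases -57 and -49, and TIMELESS holds 1, starting at base -25. The number of copies therefore did not order these windows by the number of times with a peak.

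Lists were shortest at 8 h and longest at 16 h. The peak number was 5612 at 0 h, 8240 at 4 h, 2429 at 8 h, 3919 at 12 h, 9391 at 16 h and 6873 at 20 h. The 2 short lists were next to each other in time, and since they were picked by their length, that number was given no test. The length of genome under peaks moved the same way and was 2251, 3696, 743, 1428, 4080 and 2686 kb in the same order of times. The peaks of the short lists were also narrower. Median width was 358 bp at 0 h, 396 bp at 4 h, 274 bp at 8 h, 328 bp at 12 h, 391 bp at 16 h and 362 bp at 20 h. Both short lists lay below all 4 others. The mean of these medians was 301 ± 38.2 bp (SD, n = 2 times) at 8 and 12 h against 377 ± 19.5 bp (SD, n = 4 times), a difference of -75.8 bp. An exact two-sided permutation test over the 6 libraries gave p = 0.13, the smallest p that 2 against 4 can give, and 0.20 after Benjamini-Hochberg adjustment over 3 tests. With each list reduced to its 2429 highest-scoring peaks, the length of the 8 h list, the difference was -184 bp. That cut left the 8 h list whole and took only lower-scoring peaks from the others, so it is no independent check. With it the median width rose to 452 bp at 0 h and 573 bp at 4 h. Without 8 h, and with all peaks of the remaining lists, the difference was -48.8 bp.

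Peaks near genes were less common in the short lists. A peak was counted at a gene end when it overlapped the 1 kb to either side of either end of 1 of 20037 protein-coding genes. The share of such peaks was 30.1% at 0 h, 26.0% at 4 h, 20.6% at 8 h, 19.4% at 12 h, 24.6% at 16 h and 22.6% at 20 h. The Wilson 95% interval was 19.1 to 22.3% at 8 h, 18.2 to 20.7% at 12 h and 21.6 to 23.6% at 20 h, the lowest of the other times. Such intervals cover counting error only. The mean share was 20.0 ± 0.854% (SD, n = 2 times) against 25.8 ± 3.20% (SD, n = 4 times), which is -5.80 percentage points, with an exact permutation p = 0.13 (adjusted 0.20). That p is again the smallest that 2 against 4 can give. At equal list sizes the shares were 33.1, 30.3, 20.6, 21.4, 28.4 and 25.2% in time order, and 8 and 12 h were again the lowest. The 8 h list was whole at this cut, while only the higher-scoring peaks of the others remained.

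**Figure D1:**
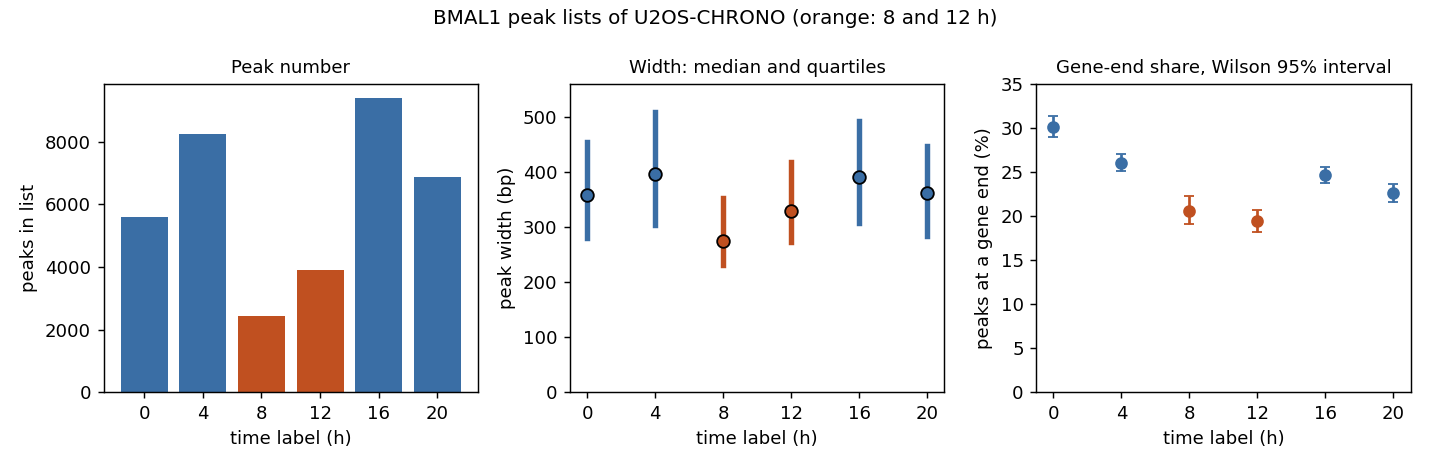
Number of peaks (left), peak width in bp as the median with its quartiles (middle) and share of peaks within 1 kb of a gene end with its Wilson 95% interval (right) in the 6 BMAL1 lists of U2OS-CHRONO by time label. The 8 and 12 h lists (orange) hold 2429 and 3919 peaks and are the lowest in all 3 panels.

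The score that each list gives its peaks is the authors' value and was used only within a list, as a rank or as a percentile in which 100 is the highest score. Scores of at least 100 made up 25.2% of the 8 h list and 26.1% of the 12 h list, and 33.5 to 37.5% of the other lists. The highest score was 1127.64 at 8 h and 2931.88 at 12 h, and 3100 or more in each of the others. Score, width, list length and gene-end share thus moved together at 8 and 12 h. The part of read depth or enrichment in this was not tested, since depth was unknown.

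Joining overlapping peaks of the 6 lists gave 16103 regions. Of these, 8697 (54.0%) had a peak at a single time and 1319 (8.19%) at all 6. A region was found at 8 or 12 h mostly when it was also found at all of the other times. With a peak at 1 of the other times, 0.745% of 7647 regions had a peak at 8 h and 2.79% at 12 h. With 2 of them the shares were 4.11% and 13.0% of 2504 regions, and with 3 they were 10.5% and 27.5% of 1764 regions. With all 4 they were 52.4% and 70.1% of 2871 regions. At each step the share was higher at 12 h, whose list is the longer of the pair.

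Of the 2871 regions with a peak at all 4 other times, 1319 were kept at both 8 and 12 h, which is 45.9% (Wilson 95% interval 44.1 to 47.8%). A further 693 (24.1%) were missing at 8 h only and 185 (6.44%) at 12 h only. The other 674 were missing at both, here called dropped, which is 23.5%. With 8 h left out, 70.1% of the regions were kept at 12 h, and with 12 h left out, 47.6% were missing at 8 h, so the missing regions came more from the 8 h list. The kept regions had ranked higher at the times when both classes had peaks. Their median percentile was 86.6 at 0 h, 90.9 at 4 h, 91.9 at 16 h and 89.1 at 20 h, against 52.3, 63.0, 64.4 and 55.7 for the dropped regions. Averaged over the other times, the median was 88.0 for kept, 68.1 for those missing at 8 h only, 66.8 for those missing at 12 h only and 54.8 for dropped regions. In 10 equal groups ordered by that average, the kept share was higher at every step, from 2.78% in the lowest group to 100% (287 of 287) in the highest. The dropped share went from 67.4% to 0% over the same groups. Kept and dropped regions were mixed in the middle: in the group between percentiles 68.8 and 74.8, 35.9% were kept and 22.6% dropped.

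**Figure D2:**
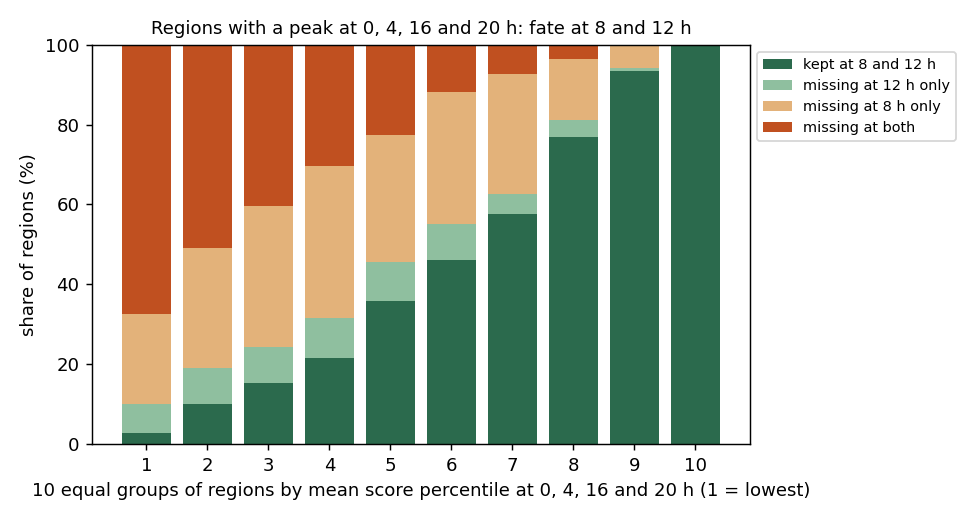
Share of the 2871 regions with a peak at 0, 4, 16 and 20 h that were kept or missing at 8 and 12 h, in 10 equal groups by their mean score percentile at those 4 times (1 is the lowest group). The kept share runs from 2.78% to 100% and the share missing at both from 67.4% to 0%.

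Since the lists differ in length, the classes were formed again with 2429 peaks from each list. That is the whole 8 h list, with its weakest peaks, and the higher-scoring part of the others. Then 1288 regions had a peak at all 4 other times, and 945 of them were kept, 73.4% (70.9 to 75.7%). Another 167 were missing at 8 h only, 86 at 12 h only and 90 (6.99%) at both. Of those 90, 36 had a peak in the full 12 h list, below its 2429 highest. The 8 h list was not cut, so it could add none. For comparison, every pair of times was treated in the same way, as the share of regions found at the remaining 4 times but at neither of the pair. The pair 8 and 12 h gave the highest of the 15 values. The next were 4.28% for 0 and 8 h and 3.80% for 8 and 20 h, and the lowest was 0.734% for 0 and 12 h. The 3 highest values all involved 8 h. Regions held by 8 and 12 h and by no other time were rare: 2 in the full lists and 25 at equal sizes. Of the 2, chr3:4332267-4332763 lies within SUMF1, a sulfatase-modifying enzyme gene, and chr7:46485783-46486090 lies 564511 bp from IGFBP3, the nearest protein-coding gene.

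Dropped regions lay at gene ends more often than kept ones. The share was 36.6% (33.1 to 40.4%) of the 674 dropped and 27.3% (interval up to 29.8%) of the 1319 kept regions. The regions missing at 1 of the 2 times were near the kept ones, with 187 of 693 for 8 h and 55 of 185 for 12 h. The order was the same among regions of like rank, in 5 equal groups by mean percentile, but the gap differed. In the lowest group 33.8% of 340 dropped and 21.6% of 37 kept regions were at a gene end. In the second it was 34.0% of 203 and 26.4% of 106. In the middle group the gap was wider, with 45 of 99 dropped (45.5%) and 53 of 235 kept regions (22.6%). In the next group up it was 17 of 31 (54.8%) and 94 of 386 (24.4%). Most dropped regions were in the 2 lowest groups. Promoter windows gave the same order, with 28.6% of dropped and 19.9% of kept regions. At equal list sizes the gene-end shares were 48.9% of the 90 dropped and 27.5% of the 945 kept regions. The 0 h list, which had the highest gene-end share, weighs on the size: without it, 30.3% of dropped and 26.6% of kept regions were at a gene end. These shares are over regions of the same 6 libraries, which are not replicates, and carry no test.

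Overlap with other libraries of the series, which had no part in forming the classes, also differed between them. A peak of the Myc library of U2OS-CHRONO, whose target the series design names as Myc-CHRONO, was found in 36.8% (34.3 to 39.5%) of kept and 14.4% (11.9 to 17.2%) of dropped regions. At like rank the shares were close: 16.2% of kept and 20.2% of dropped regions in the middle group, and 28.2% and 29.0% in the next. A BMAL1 peak of parental U2OS at any time was found in 94.7% of kept and 72.4% of dropped regions. For U2OS at 12 h the shares were 47.8% and 10.4%, and for U2OS at 8 h 13.5% and 0.593%. At like rank the share with a U2OS peak at 8 or 12 h was higher in kept regions, by differing amounts. In the lowest of the 5 groups it was 13.5% of kept and 5.88% of dropped regions, and in the second 20.8% and 11.8%. In the middle group it was 20.0% and 19.2%, and in the next 39.4% and 29.0%. The 2 lowest groups held 340 and 203 of the dropped regions, and the highest group held 1. The U2OS library labelled 8 h overlapped 7.95% of the peaks of the 8 h list here, the lowest same-time share. The others ran from 19.1% at 16 h to 41.8% at 20 h. With U2OS peaks of any time the 8 h share was 67.6%, the highest, against 49.9 to 63.2%. At equal list sizes it was the lowest, against 79.0 to 86.8%. That U2OS library also overlapped just 6.83% of the 2871 regions, against 30.3 to 72.0% for the other U2OS times. How far the length of its list set these shares was not tested.

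Regions seen at a single time differed between short and long lists. They numbered 975 at 0 h, 2064 at 4 h, 525 at 8 h, 790 at 12 h, 2820 at 16 h and 1523 at 20 h, with median percentiles between 19.6 and 24.7. Those at 8 and 12 h were at gene ends in 4.76% and 5.70% of cases, against 15.2 to 27.5% at the other times. They overlapped a U2OS BMAL1 peak in 1.71% and 3.92%, against 14.1 to 16.6%. A peak of the Myc-CHRONO library lay in 0 of 525 at 8 h and 3 of 790 at 12 h, against 2.04 to 3.59% at the other times. On these measures the 8 and 12 h single-time regions stood below those of all 4 other lists. To count as single-time, a region at 8 or 12 h had to be absent from all 4 longer lists. A region of a longer list had to be absent from fewer of them, so the sets were not filtered alike. In all, 22.1% of the regions of the 8 h list were found at no other time, and 30.8% at equal list sizes, the highest of the 6, while 56.2% of its peaks lay in regions found at all 6 times. At equal sizes only the 8 h list kept its weakest peaks, so the 30.8% is not a like comparison.

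Neighbouring times did not share more peaks than distant ones beyond what other orders of the times gave. Overlap was measured by the Jaccard index, the shared peaks over all peaks of a pair, at equal list sizes and on a 24 h circle. It averaged 0.477 ± 0.0814 (SD, n = 6 pairs) 4 h apart, 0.464 ± 0.0617 (n = 6 pairs) 8 h apart and 0.468 ± 0.0974 (n = 3 pairs) 12 h apart. Neighbours minus the rest was 0.0114, with an exact two-sided permutation p = 0.30 over the 720 orders of the times (adjusted 0.30), where the smallest p possible was 0.017. The difference was -0.0269 without 0 h and -0.00930 without 20 h. The highest index was 0.581 for 0 and 4 h, closely followed by 0.577 for 4 and 16 h, which are 12 h apart. The lowest was 0.361 for 8 and 12 h, the neighbouring pair of short lists. Pairs within the other times averaged 0.541 ± 0.0312 (n = 6 pairs) and pairs of a short list with another time 0.431 ± 0.0421 (n = 8 pairs). The 8 h list had the lowest mean with the remaining lists, 0.387 ± 0.0160 (n = 5 pairs), and 12 h came next with 0.446 ± 0.0508 (n = 5 pairs). The 8 and 12 h lists were thus each less like the others and also unlike one another. At this cut the lowest score was 50.02 at 8 h, 61.09 at 12 h and 86.94 to 120.57 at the other times.

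**Figure D3:**
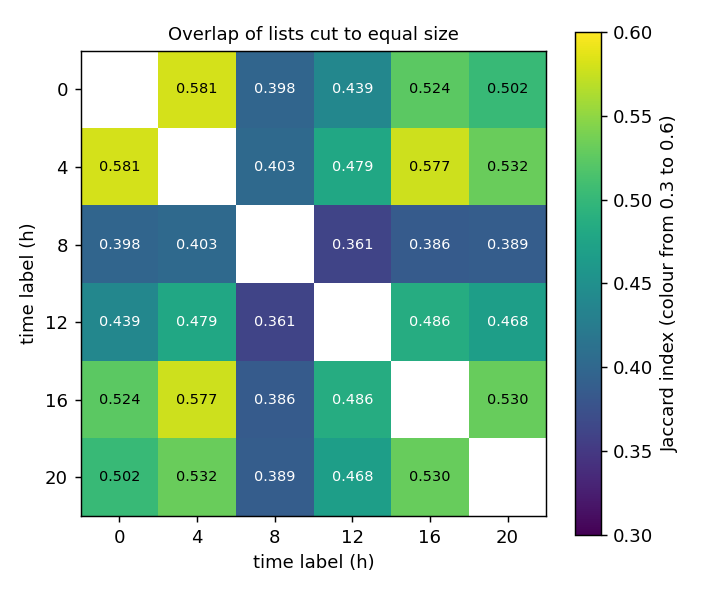
Jaccard index of each pair of the 6 lists, each reduced to 2429 peaks, with both axes giving the time label in h. The row of 8 h is low throughout, and its pair with 12 h is the lowest at 0.361, while 0 and 4 h reach 0.581.

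Within the 1319 regions kept at all times, the order of scores was similar from list to list. Spearman's rho over these regions was between 0.65 and 0.83 for the 15 pairs of times. The pairs with 8 h ran from 0.65 to 0.68, and 0 with 4 h and 4 with 16 h both reached 0.83. All regions come from the same libraries, so these values are a description with no p.

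High-ranking BMAL1 sites of the clock were followed through the 6 lists. For each of 20 core clock genes the leading region was the merged region found at the most times, with ties broken by percentile. It had to overlap the gene or the 5 kb to either side, and could extend further. This choice favours regions present at 8 and 12 h and of high rank, so the ranks are a description. NR1D1 (REV-ERBα; chr17:40097017-40101793) ranked 1, 2, 1, 1, 1 and 1 from 0 to 20 h. DBP (chr19:48636959-48638914) ranked 2, 2, 3, 2, 2 and 2, and TEF (chr22:41379876-41383618) ranked 3, 2, 2, 3, 5 and 3. At 4 h these 3 genes share rank 2, since their scores were equal. BHLHE40 (DEC1; chr3:4977508-4979696) ranked 15, 9, 6, 6, 6 and 4, and PER3 (chr1:7783467-7786000) 9, 13, 8, 12, 12 and 15. PER1 (chr17:8156074-8157434) ranked 8, 12, 5, 4, 7 and 5 in a region upstream of its start, while its peak at the gene end ranked 858, 981, 513, 810, 713 and 876. NR1D2 (chr3:23943583-23947301) ranked 10, 10, 9, 9, 32 and 9. These sites were within the highest 32 peaks of all 6 lists, whatever the length of the list.

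Other clock sites of the repressor genes varied more in rank. The BHLHE41 region (DEC2; chr12:26113459-26117595) ranked 6, 1, 21, 8, 9 and 19, and had the highest score of the whole 4 h list. At 8 and 20 h these ranks belong to peaks of the region more than 5 kb from the gene. Within 5 kb the highest peak ranked 317 at 8 h, in the same region. At 20 h it ranked 418 and lay at a separate site, chr12:26125699-26126319. PER2 (chr2:238286404-238289809) ranked 12, 23, 55, 27, 54 and 28. CRY2 (chr11:45844940-45847699) ranked 93, 63, 155, 153, 140 and 143. CRY1 (chr12:107093338-107094264), encoding a repressor of the BMAL1-CLOCK pair, ranked 196 at 0 h, 199 at 4 h, 1120 at 8 h, 241 at 12 h, 439 at 16 h and 240 at 20 h. At 8 h CRY1 stood at percentile 53.9, against 93.9 to 97.6 at the other 5 times, so the low value was in a single library.

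The clock sites that were missing at 8 and 12 h ranked below the kept ones at the other times. The leading region of CIART, the gene of CHRONO itself (chr1:150283102-150283782), ranked 1835 at 0 h, 2121 at 4 h, 1569 at 16 h and 6539 at 20 h. HLF (chr17:55264695-55265182) ranked 3876, 6600, 2315 and 3191 at these times. Other leading regions were found at fewer times. They were found at 0, 4 and 16 h for RORA, at 4 and 16 h for the BMAL1 gene and at 16 and 20 h for NPAS2. That of CLOCK was found at 4 h, and that of NFIL3 at 12 and 20 h and so not missing at 12 h. Elsewhere in or near the gene, RORA had a peak ranked 3641 at 12 h and NPAS2 one ranked 2365 at 8 h. RORB had none. No leading region of RORA, BMAL1, NPAS2, CLOCK or NFIL3 was found at more than 3 times.

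**Figure D4:**
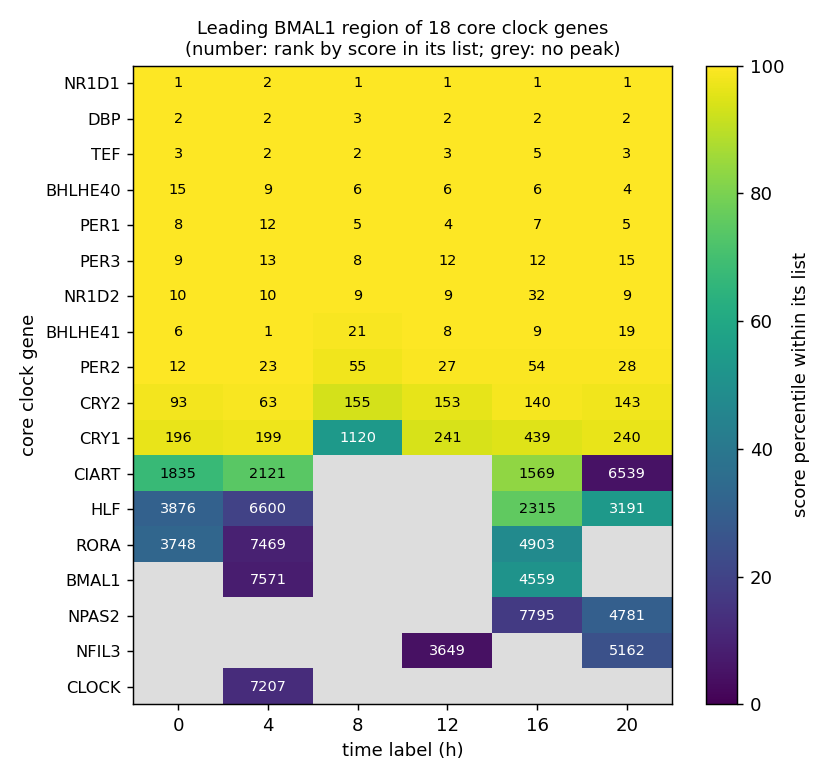
Rank by score (number) and score percentile within its list (colour) of the leading BMAL1 region of 18 core clock genes at the 6 time labels in h, with grey where no peak was found. NR1D1 holds rank 1 or 2 at all times, and CIART and HLF are grey at 8 and 12 h.

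Counted at gene ends, most core clock genes that were bound kept a peak at 8 and 12 h. Of the 20, 13, 14, 11, 10, 14 and 14 had a gene-end peak from 0 to 20 h. Over all 20037 protein-coding genes the shares were 9.26%, 11.3%, 2.75%, 4.25%, 12.2% and 8.65%, and 18.3% had such a peak at 1 or more times. Of the core clock genes, 15 had one at some time and 10 at all 6 times, where 1.96% of all genes did. CIART and HLF were the 2 dropped, and 1.49% of all genes were dropped. Among the 3 PAR bZIP genes DBP and TEF were kept and HLF dropped. Of the 11 repressors 8 were kept, and PER2 and NFIL3 had no gene-end peak at any time. The RefSeq promoter window of PER2 lies inside the annotated gene, and that window (chr2:238288561-238288860) had a peak at all 6 times. The core clock list is known for its BMAL1 binding, so its share is a description.

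A smaller share of each of the other lists was bound, and in most of them 8 and 12 h were the lowest times. They were the lowest over all protein-coding genes too, at 2.75% and 4.25% against 8.65 to 12.2%. Of 18 clock output genes 8, 8, 5, 5, 8 and 8 had a gene-end peak from 0 to 20 h. NAMPT, the rate-limiting enzyme of NAD salvage, ranked 497, 597, 1461, 547, 463 and 391. TSPAN4, a tetraspanin, ranked 49, 67, 85, 70, 194 and 334, and KLF11 and HIF1A were kept too. KLF9, a zinc finger factor, was dropped, at ranks between 1676 and 2786 elsewhere. Of 15 clock cofactors and kinases found in the gene table, 3, 4, 2, 2, 5 and 3 were bound. CSNK1E, a kinase that phosphorylates PER proteins, and SIRT1, an NAD-dependent deacetylase, were kept. TIMELESS, whose promoter is shown above, was dropped and had ranked 1099, 1496, 2804 and 2345 at 0, 4, 16 and 20 h.

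Of 30 genes listed as targets of the MYC gene product or for ribosome biogenesis, 15, 17, 8, 8, 16 and 13 had a BMAL1 gene-end peak from 0 to 20 h. Of the 30, 6 were kept and 3 dropped. The list was not drawn from the Myc-CHRONO library. Over all genes 9.26%, 11.3%, 2.75%, 4.25%, 12.2% and 8.65% were bound in the same order of times. All 6 times held a peak for 1.96% of all genes, and 1.49% were dropped. CDK4 ranked 28, 26, 23, 26, 31 and 25 and so stayed within the highest 31 peaks of all 6 lists. LDHA, lactate dehydrogenase A, ranked 130, 173, 292, 547, 132 and 175. NCL, encoding nucleolin, and EIF4E, the cap-binding factor, were also kept. Of 27 lysosome and autophagy genes, 6, 8, 4, 4, 9 and 10 were bound. FNIP1, a partner of folliculin, ranked 392, 358, 508, 242, 567 and 560, and UVRAG was the other one kept. LAMP1, with 6 copies of CACGTG in its promoter window, ranked 372, 404, 928, 649 and 727 at 0, 4, 8, 16 and 20 h and had no peak at 12 h. A single library set LAMP1 apart from the kept genes.

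Of 22 glucocorticoid-induced genes, 7, 6, 4, 2, 7 and 7 were bound from 0 to 20 h. Over all genes the shares were 9.26%, 11.3%, 2.75%, 4.25%, 12.2% and 8.65%, so the fall at 8 and 12 h is not particular to this list. BIRC3, an inhibitor of apoptosis, ranked 1541, 1357, 619, 723 and 424 at 0, 4, 8, 16 and 20 h and was missing at 12 h. CEBPB was missing at 12 h only as well. Of 10 osteoblast genes 1, SPP1, had a gene-end peak, at 12 h alone with rank 3477. Of 15 genes of other cell types 1, the neuronal SNAP25, had one, at all 6 times with ranks from 393 to 1282. Binding near a gene does not measure its expression, so the tissue label could not be checked against markers with these files.

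Over all genes, 976 had a gene-end peak at the 4 other times. Of these, 392 (40.2%) were kept, 221 (22.6%) were missing at 8 h only, 64 (6.56%) at 12 h only and 299 (30.6%) were dropped. No gene had a peak at both 8 and 12 h and at no other time. The kept genes of highest percentile were mostly clock genes: NR1D1, DBP with its neighbour CA11, BHLHE40, PER3 and NR1D2 with its overlapping neighbour NKIRAS1. CDK4, OSGIN1 (an oxidative stress response gene) and ADIRF with its neighbour LOC124902474 were also among them. ADIRF ranked 13, 19, 33, 14, 42 and 32, and OSGIN1 ranked 24, 28, 20, 30, 28 and 36. CA11, NKIRAS1 and LOC124902474 share their peak with the gene beside them, and the files do not say which gene a peak acts on.

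A gene can lose its gene-end peak while the merged region behind it keeps one outside the window, so the regions of the 299 dropped genes were checked. For 295 of them (98.7%) the region had no peak at 8 or 12 h, and for 4 it had one. Those 4 include TMEM183A and HNRNPF, whose peaks had some of the highest percentiles among dropped genes. TMEM183A, encoding a transmembrane protein, ranked 77 at 0 h, 164 at 4 h, 123 at 16 h and 258 at 20 h, and its region held a peak ranked 840 at 8 h and 239 at 12 h, beyond the gene-end window. HNRNPF, an RNA-binding splicing factor, ranked 1148, 93, 151 and 1410 at the other times, and its region held a peak ranked 169 at 8 h and 264 at 12 h. Neither site was therefore missing at 8 and 12 h. Among genes whose region was missing at both, ZNF131, a zinc finger factor, ranked 573, 471, 397 and 1119 at the other times, and SPG21, whose promoter is shown above, 614, 521, 540 and 1447. TBC1D17 and AKT1S1 share a peak ranked 556, 999, 695 and 693. ESYT1 and ZC3H10 share another, ranked 757, 1154, 584 and 659. LRFN4 ranked 376, 356, 696 and 1853, IGSF9 485, 1148, 1932 and 1028, and SLC43A1, an amino acid transporter, 803, 1026, 1890 and 1308. None of these sites had ranked in the highest 300 at any of the 4 times.

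Among the 392 kept genes, most stood lower in the short lists. The percentile at 8 and 12 h minus that at the other times had a median of -13.6 points, and was below 0 for 380 genes and above 0 for 12. A list with fewer weak peaks places a shared peak lower, so the order among the kept genes was also taken, from 1 to 392. BNIP3, a mitophagy receptor, ranked 392, 354, 194, 242, 279 and 377 among them from 0 to 20 h. STMN1, encoding the microtubule protein stathmin, ranked 238 and 276 at 0 and 4 h, 28 at 8 h, 96 at 12 h, and 221 and 189 at 16 and 20 h. NAA30, the catalytic subunit of an N-terminal acetyltransferase, ranked 385, 324, 109, 72, 126 and 177. CNPY2 and PAN2 share a peak ranked 329, 319, 102, 193, 258 and 385. FCRLB ranked 372, 261, 161, 50, 230 and 265. For BNIP3, STMN1, NAA30, FCRLB and the CNPY2 peak, both 8 and 12 h were above all 4 other times in this order.

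Other kept genes had the largest falls of percentile at 8 and 12 h. XRN2, the exoribonuclease of transcription termination, ranked 264, 339, 376, 392, 239 and 302 among the kept genes. BTF3L4 and TXNDC12 share a peak that ranked 275 and 256 at 0 and 4 h, 390 at 8 h, 350 at 12 h and 277 and 260 at 16 and 20 h. GNPDA1, which acts on glucosamine 6-phosphate, ranked 311, 264, 389, 346, 308 and 266. RNF13, a ubiquitin ligase, ranked 336, 244, 392, 353, 349 and 357, and KPNA3, an importin, 320, 176, 283, 385, 319 and 135. In the full lists the RNF13 peak was 2375 of 2429 at 8 h and the XRN2 peak 3649 of 3919 at 12 h, close to the end of each list. In the order among kept genes, XRN2, the BTF3L4 peak and GNPDA1 stood below all 4 other times at both 8 and 12 h, while RNF13 did so at 8 h only and KPNA3 at 12 h only. These genes were named for their shift, which is therefore given with no test.

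Promoters with peaks at more times held CACGTG more often. RefSeq windows matched 15842 of the 20037 genes (79.1%), with 22175 windows in all, and some windows of a gene overlap. CACGTG, which reads the same on both strands, was in 8.34% of all windows and in 5.74% of the 19227 windows with no peak. With a peak at 1 time the share was 11.6%, at 2 times 18.4%, at 3 times 32.1%, at 4 times 44.1%, at 5 times 38.5% (32.3 to 45.1%) and at all 6 times 57.8% (52.1 to 63.3%, 170 of 294 windows). The dropped windows held it in 44.1% (37.8 to 50.7%, 98 of 222), and the 205 of them whose whole region was missing at 8 and 12 h in 46.3% (39.6 to 53.2%). The share therefore went up with the number of times except from 4 to 5. The variant CACGTT, searched on both strands, was in 13.3% of kept, 9.46% of dropped and 5.43% of all windows. The cAMP response element TGACGTCA was in 4.76%, 4.05% and 2.26%, and GGGCGG, the core of the GC box, in 77.9%, 79.7% and 56.3%. A pair of CACGTG separated by 6 bases was in 2 of the 22175 windows, neither with a peak, and a pair separated by 7 bases in none.

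**Figure D5:**
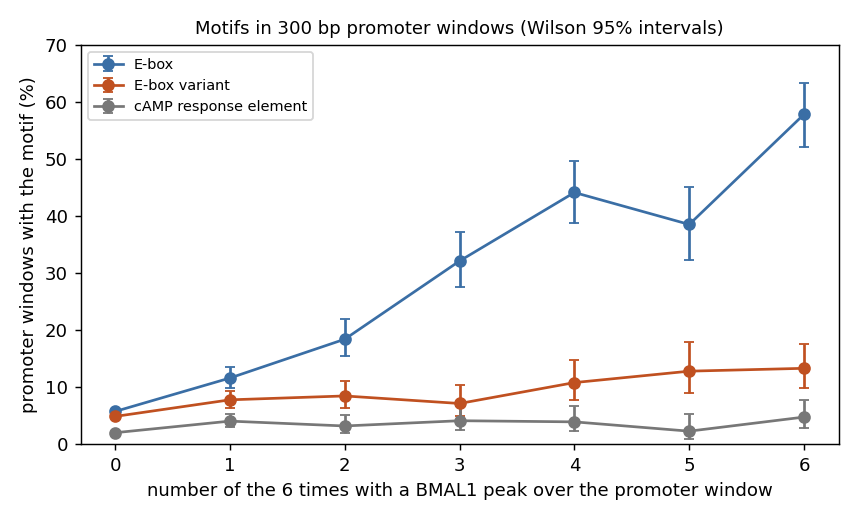
Share of 300 bp RefSeq promoter windows that hold the E-box CACGTG, its variant CACGTT or the cAMP response element TGACGTCA, with Wilson 95% intervals, by the number of the 6 times with a BMAL1 peak over the window. The E-box share runs from 5.74% with no peak to 57.8% with a peak at all times, while the other motifs stay below 14%.

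Windows with a peak at a single time differed by time as well. CACGTG was in 12.2% of 222 windows at 0 h only, 15.5% of 317 at 4 h only, 7.42% (5.36 to 10.2%) of 458 at 16 h only and 14.8% of 203 at 20 h only. The 16 h windows, from the longest list, were thus near the 8.34% of all windows. At 8 h only, 2 of 12 windows held it, and at 12 h only, 1 of 22. A match to a motif describes the letters of the window and does not show where BMAL1 was bound within the peak.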

How the data were processed

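The 6 lists come from chromatin immunoprecipitation with an antibody to BMAL1, 1 library per time; 3 input libraries of the series were not analysed here. Per the submitters' processing notes, MACS 1.4.2, HOMER 4.10.3, bedtools and hg38 were used, with no roles stated. The sources used here do not give the aligner, the depth or the control. Each deposited list gives a position and a score per peak, which is the authors' value with no stated definition. Its minimum was near 50, and such a score is by convention the log10 of a p-value times -10. An overlap was 1 bp or more, and overlapping peaks of the 6 lists were merged into regions. Overlap counts were checked against bedtools 2.31.1 and were equal for 30 of 30 ordered pairs of lists. The classing into kept and dropped regions was tested on simulated data. Genes and promoter windows came from RefSeq tables of GRCh38.p14, the assembly of hg38; the gene table gives no strand, exon or intron, so both gene ends were used. Shares carry Wilson 95% intervals. Exact permutation tests ran over libraries or time orders, with Benjamini-Hochberg adjustment over 3 tests. Named genes are those of the core clock, from every other list at most 4 (those with a peak at the most times), the 12 kept and 12 dropped genes of highest percentile, and the 8 kept genes with the largest rise and the 8 with the largest fall of percentile at 8 and 12 h; other names were added after their values were seen, and some named genes are not reported here. Members, gene lists and time classes were chosen with earlier results of these data known. Scripts ran in Python 3.11.15 with SciPy 1.17.1, NumPy 2.4.6 and, for figures, matplotlib 3.10.9.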

Additional observations from a re-analysis of the deposited data

How the results depend on the processing

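No paired analysis was possible because there was 1 library per time. Under all alternatives run, median width and gene-end share stayed lower at 8 and 12 h. Their exact permutation tests could not show whether this was stable. The smallest p that 2 against 4 libraries can give is 0.13, above the threshold of 0.05. Fewer libraries cannot give a smaller one. The times 8 and 12 h were also picked by their list length. In the exact permutation test of neighbour minus other Jaccard index, the lowest p was 0.18, found without 4 h. Leaving out each time in turn gave -103 to -48.8 bp for width, -6.89 to -4.36 points for gene-end share and -0.0269 to 0.0363 for neighbour minus other Jaccard index, which was below 0 without 0 h and without 20 h; on a line instead of a circle it was 0.00276. The kept share was 38.3% with scores of at least 100 and 30.1% with a peak at 3 or more of the other times, and 36.8 to 70.1% leaving out each time. The dropped share was 33.5%, 39.7% and 26.2 to 47.6% in the same order. The percentile of kept minus dropped regions, 33.1, was 23.8 to 36.8 leaving out each time. At equal sizes the kept share was 83.3% with the top 1000 peaks and 67.7 to 84.2% leaving out each time. The differences of dropped minus kept regions were examined under alternatives added after seeing the data. For gene ends, 9.35 points became 21.4 at equal sizes and 3.69 to 10.4 leaving out each time. For promoter windows, 8.77 points became 14.0 with scores of at least 100, 18.7 at equal sizes and 3.58 to 7.97 leaving out each time. With fewer times or stricter lists the classes hold other regions by construction. The main limits are 1 library per time, unknown depth and a score of unstated definition.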
